A study of Homo sapiens with 4 samples.

Results

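Mitochondrial ribosomal proteins (MRPs) were taken as the genes whose symbol is MRPL or MRPS followed by a number, on probe sets annotated with exactly 1 gene symbol and with pseudogenes left out. This rule took 76 of 19775 genes, carried by 141 probe sets. Of these, 75 encode proteins, with 140 probe sets, and they are the members described here. The other is MRPL20-AS1, a non-coding antisense gene, which is given apart. Their transcripts were measured in total RNA on 4 Affymetrix HG-U133 Plus 2.0 arrays, with 1 colour each, of CaSki, an HPV-positive cervical squamous carcinoma line. In 2 arrays the cells carried GFP, the control, and in 2 arrays they were labelled as carrying ZNF750, a zinc finger protein known for promoting terminal differentiation of the epidermis. Both groups had received their gene by lentivirus and were kept in DMEM that the labels list as holding no serum. Only 1 cell line was used, and the sources used here do not say whether the transduced cells were pools or clones. The arrays are called biologic duplicates, with no word on how the cultures were made, so p-values measure the spread between these arrays.

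The mitochondrial ribosome translates the few proteins encoded by mitochondrial DNA, all of them subunits of the oxidative phosphorylation complexes. Its ribosomal RNAs come from mitochondrial DNA, whereas its proteins are encoded in the nucleus, made in the cytosol and imported. MRPL proteins mostly build the large subunit, where peptide bonds form, and MRPS proteins mostly build the small subunit, where the codon is read. Many are homologs of bacterial ribosomal proteins, and the rest were gained by mitochondria. The nuclear factors NRF1, the ETS factor GABP and YY1 are known to bind promoters of such genes.

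ZNF750 itself has 1 probe set on the array, and this did not show the introduced gene. It read log2 values of 2.13 and 2.37 in the GFP arrays and 2.23 and 2.29 in the arrays labelled ZNF750, and differed by 0.0037 between the groups (limma adjusted p = 0.99). Whether this probe set lies within the introduced sequence was not examined, so its signal does not settle whether ZNF750 was expressed. The second group is therefore called ZNF750-labelled throughout. The 5 measured markers of the CaSki line, namely the epithelial genes KRT5, KRT14, CDH1 and EPCAM and the cell cycle inhibitor CDKN2A, had group means of 10.83 to 13.09. The 10 markers of fibroblasts, leukocytes and endothelium had group means of 2.68 to 8.46, COL1A1 being the highest. Of the CaSki markers, KRT14 (1.10 ± 0.0349, adjusted p = 1.19e-05), KRT5 (0.24 ± 0.032, adjusted p = 0.0028) and EPCAM (0.18 ± 0.0478, adjusted p = 0.0388) rose, CDKN2A fell (-0.29 ± 0.0432, adjusted p = 0.00439), and CDH1 did not pass (0.19, adjusted p = 0.0721). Their summed log2 level was 58.53 and 58.41 with GFP and 59.96 and 59.83 in the ZNF750-labelled arrays. That of the other markers was 48.52 and 49.7 against 49.62 and 50.18, and none of the 10 passed the test. The signal of ACTB probes at the 3′ end exceeded that at the 5′ end, a sign of RNA integrity and labelling, by 3.03 and 2.81 log2 units with GFP and by 3.76 and 3.35 in the ZNF750-labelled arrays. For GAPDH the excess was 0.63 and 0.61 against 0.85 and 0.80.

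Transcripts of the mitochondrial ribosome were lower in the ZNF750-labelled arrays more often than they were higher, by small amounts. Of the 75 members, 25 fell, 2 rose and 48 did not pass the test (limma, Benjamini-Hochberg adjusted p under 0.05 over all genes). These falls were 33.3% of the members, whereas 10.2% of all genes fell, and the rises were 2.67% of the members, whereas 7.79% of all genes rose. Every member was brighter than the median gene, with mean log2 levels of 7.56 to 12.42 against a median gene level of 6.55. Bright genes passed more often, so the closer background is the 9888 genes above that median, of which 19.4% fell and 11.8% rose. The median difference, ZNF750-labelled minus GFP, was -0.109 log2 units over the members, 0.036 over all genes and -0.025 over the brighter genes. It lay below 0 for 57 members, or 76%, compared with 42.6% of all genes and 54.7% of the brighter genes. In RNA from whole cultures, fewer cells holding a transcript and less of it per cell cannot be told apart. The 3′ excess of ACTB was 0.64 log2 units larger in the ZNF750-labelled arrays, and its part in these counts was not tested.

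**Figure D1:**
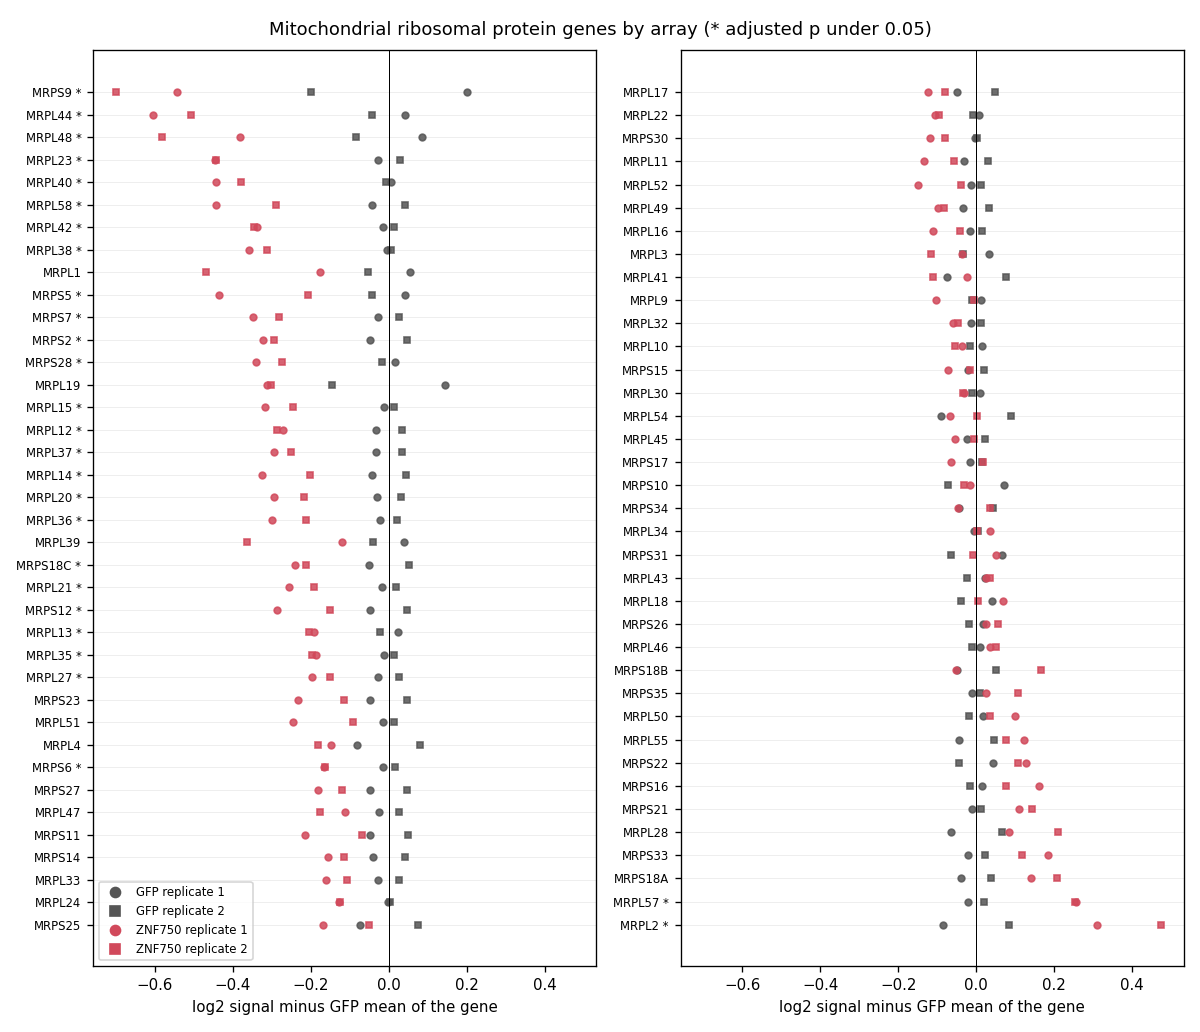
Log2 signal of each of the 75 members minus its GFP mean (horizontal axis), by array: grey points are GFP, red points are ZNF750-labelled, circles are replicate 1 and squares replicate 2, with members ordered by their difference and a star on those that passed. The 25 members that fell have both red points left of both grey ones, with mean differences of -0.16 to -0.62, and MRPL57 and MRPL2 have both to the right.

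Groups of arrays did not overlap for most members. Both ZNF750-labelled arrays lay below both GFP arrays for 48 members, as they did for 25.2% of all genes and 40.3% of the brighter genes. Both lay above for 14 members, against 33.6% of all genes. After each gene was centred on its mean, the member median was 0.039 and 0.081 in the GFP arrays and -0.074 and -0.038 in the ZNF750-labelled arrays, so the 2 groups stood apart in this summary too. No member reached a 2-fold difference. The median difference of the members that fell was -0.28, against -0.36 for all genes that fell. Standard errors of the member differences ran from 0.0395 to 0.128, with a median of 0.0523. Leaving out each array in turn leaves 1 array in a group. Calls then dropped among all genes as well as among the members. They dropped most without either GFP array, where no called member kept its call. The groups of all 27 called members did not overlap, so no sign among them could change in these 4 fits. The members' median difference ran from -0.151 to -0.094.

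**Figure D2:**
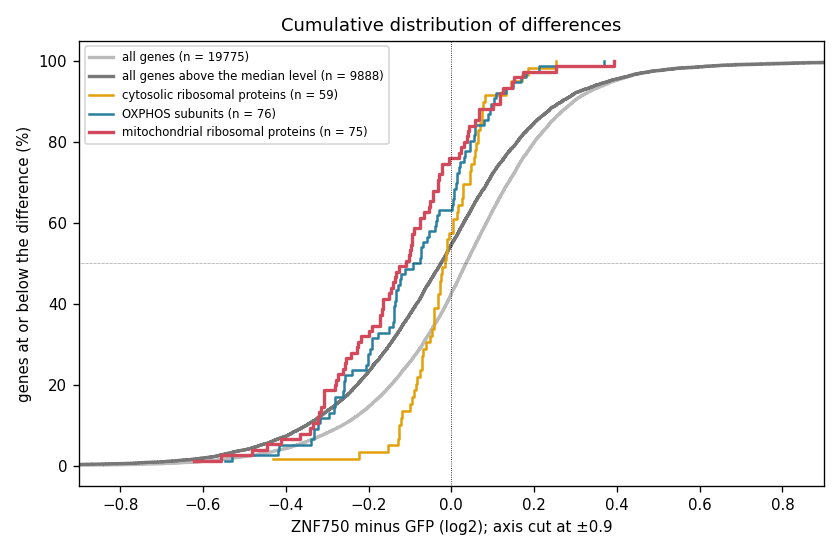
Percent of genes (vertical axis) at or below a given log2 difference, ZNF750-labelled minus GFP (horizontal axis, cut at both ends), for the 75 members, the 59 cytosolic ribosomal proteins, the 76 oxidative phosphorylation (OXPHOS) subunits, all genes and all genes above the median level. The member curve lies left of both curves of all genes around 0, with 76% of members below 0, and meets that of the brighter genes at the most negative differences.

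The 8 largest falls among members whose groups did not overlap were in 1 small-subunit and 7 large-subunit genes. MRPS9 encodes the small-subunit protein uS9m. Its log2 level was 8.64 and 8.24 with GFP and 7.90 and 7.74 in the ZNF750-labelled arrays, a fall of 1.54-fold (-0.62 ± 0.128, SE, n = 2 per group; limma adjusted p = 0.0149). The 2 GFP arrays lay further apart for this gene than for the other 7. MRPL44, a large-subunit protein with a ribonuclease III-like fold, was at 7.88 and 7.80 against 7.23 and 7.33, a difference of -0.56 ± 0.0789 (adjusted p = 0.00361). Its dimmer probe set, 218202_x_at, differed by 0.0007 between the groups and did not pass. MRPL48 was at 9.61 and 9.45 against 9.15 and 8.95, a difference of -0.48 ± 0.085 (adjusted p = 0.00827). MRPL48 sits in the central protuberance, the crown of the large subunit that faces the small one.

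MRPL23, at the mouth of the tunnel through which the new chain leaves, was at 9.75 and 9.81 with GFP and 9.33 and 9.34 in the ZNF750-labelled arrays (-0.45 ± 0.0518, adjusted p = 0.00179). MRPL40, also of the central protuberance, was at 10.63 and 10.62 against 10.18 and 10.25 (-0.41 ± 0.0469, adjusted p = 0.00168). These 2 genes had the lowest adjusted p-values among the members, and their GFP arrays lay within 0.06 of each other. MRPL58, a peptidyl-tRNA hydrolase that is also a structural subunit, was at 9.28 and 9.36 against 8.88 and 9.03 (-0.37 ± 0.0701, adjusted p = 0.0113). MRPL42 was at 9.63 and 9.66 against 9.31 and 9.30 (-0.34 ± 0.0509, adjusted p = 0.0043), but another of its probe sets rose. MRPL38, again of the central protuberance, was at 8.39 and 8.41 against 8.04 and 8.09 (-0.34 ± 0.0639, adjusted p = 0.011). The dimmer probe sets of MRPL23 (1562392_at) and MRPL38 (230726_at) differed by 0.05 and -0.0051 and did not pass. Without ZNF750-labelled array 1 the calls of MRPS9, MRPL58 and MRPL38 were lost, and without array 2 those of MRPS9, MRPL48 and MRPL38. Without either GFP array every called member lost its call.

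The other 17 members that fell did so by 0.16 to 0.32 log2 units. Among the small-subunit genes, these were MRPS5, MRPS7, MRPS2, MRPS28, MRPS18C, MRPS12 and MRPS6. Their levels in the ZNF750-labelled arrays were below both GFP arrays in every case; MRPS2, for example, was at 9.64 and 9.74 with GFP and 9.37 and 9.39 in the ZNF750-labelled arrays (-0.31 ± 0.0561, adjusted p = 0.00913). Among the large-subunit genes, they were MRPL15, MRPL12, MRPL37, MRPL14, MRPL20, MRPL36, MRPL21, MRPL13, MRPL35 and MRPL27. MRPL15 was at 11.20 and 11.22 against 10.89 and 10.96 (-0.28 ± 0.0442, adjusted p = 0.0052). MRPL36 was at 11.30 and 11.34 against 11.02 and 11.11 (-0.26 ± 0.0467, adjusted p = 0.00932). In each of these 3 genes the gap between the groups was wider than the gap between duplicates.

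The 2 members that rose both belong to the large subunit. MRPL2, a homolog of the bacterial protein next to the peptidyl transferase centre, was at 8.06 and 8.23 with GFP and 8.45 and 8.62 in the ZNF750-labelled arrays (0.39 ± 0.0865, adjusted p = 0.0195). MRPL57, a mitochondria-specific subunit, was at 11.26 and 11.30 against 11.54 and 11.53 (0.25 ± 0.0395, adjusted p = 0.00503). Its 2 ZNF750-labelled arrays differed by less than 0.01. The calls of MRPL2 and MRPL57 were lost without the intensity trend and without either GFP array. MRPL20-AS1 was at 8.14 and 8.19 against 8.21 and 8.21, a difference of 0.05 that did not pass (adjusted p = 0.661), while MRPL20 fell (-0.26 ± 0.0486, adjusted p = 0.0108).

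The NRF1 core stood before some members that fell and before MRPL57, which rose. The 250 bases before the RefSeq start (GRCh38.p14) are shown for the 2 members that fell most, for MRPL20, which holds 2 kinds of motif, and for MRPL57, which rose. Capitals mark the NRF1 core GCGCANGCG and the ETS core CCGGAAG, on either strand. The windows, in the order shown, are chr2:105037819-105038068 (plus strand), chr2:223957213-223957462 (plus strand), chr1:1407294-1407543 (minus strand) and chr13:21176408-21176657 (plus strand), each written 5′ to 3′ toward its gene.
MRPS9: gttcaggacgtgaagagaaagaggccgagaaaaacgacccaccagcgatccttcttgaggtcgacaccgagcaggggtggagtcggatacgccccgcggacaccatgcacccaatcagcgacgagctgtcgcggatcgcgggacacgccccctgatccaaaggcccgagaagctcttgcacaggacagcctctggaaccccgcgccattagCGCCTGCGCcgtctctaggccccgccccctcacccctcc
MRPL44: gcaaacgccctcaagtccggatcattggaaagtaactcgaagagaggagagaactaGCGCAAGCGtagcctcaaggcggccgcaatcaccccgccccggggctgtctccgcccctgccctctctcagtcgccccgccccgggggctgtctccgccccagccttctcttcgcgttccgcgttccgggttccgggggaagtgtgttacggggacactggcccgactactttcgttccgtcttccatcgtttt
MRPL20: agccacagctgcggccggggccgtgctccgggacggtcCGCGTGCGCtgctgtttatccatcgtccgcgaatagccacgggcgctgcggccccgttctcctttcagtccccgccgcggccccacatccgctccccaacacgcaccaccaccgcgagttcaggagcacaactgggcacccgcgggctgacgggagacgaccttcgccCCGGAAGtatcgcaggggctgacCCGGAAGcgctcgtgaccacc
MRPL57: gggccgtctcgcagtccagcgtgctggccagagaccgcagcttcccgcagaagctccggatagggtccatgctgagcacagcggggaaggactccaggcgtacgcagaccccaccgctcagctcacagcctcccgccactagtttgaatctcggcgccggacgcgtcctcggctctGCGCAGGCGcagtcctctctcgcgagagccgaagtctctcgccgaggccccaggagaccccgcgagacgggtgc
The NRF1 core begins at base -39 of MRPS9, -194 of MRPL44, -212 of MRPL20 and -74 of MRPL57, counted back from the start, and the ETS cores of MRPL20 begin at -44 and -21. In these picked windows the core stood before genes that fell and before a gene that rose. MRPL2, which rose most, had no window. MRPL48, MRPL40, MRPL58, MRPL42 and MRPL38 held no NRF1 core in the 250 bases before the start. MRPL36 and MRPS18C held 3 kinds of motif. Whether the core goes with the differences was not tested. A match is a string of letters and was not measured as a bound site.

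A RefSeq promoter window was at hand for 67 of the 75 members, and those of MRPL23, MRPS28, MRPL15, MRPL21, MRPL13, MRPL35, MRPL10 and MRPL2 were not used here. Motifs were counted on either strand from 250 bases before a start to 50 bases after it, a longer stretch than the one printed above. The ETS core was found in 29 members (43.3%), against 12.2% of 27305 genes in the table and 16.6% of those on the array. The YY1 core AAGATGGCG was in 12 members (17.9%), against 2.14% and 3.23%. The NRF1 core was in 14 members (20.9%), against 9.02% and 12.8%, and the E-box CACGTG in 9 (13.4%), against 8.77% and 10.9%. Members with and without a motif overlapped in their response. The median difference was -0.075 with the ETS core and -0.118 without it, -0.074 and -0.127 for YY1, -0.164 and -0.095 for NRF1, and -0.227 and -0.097 for the E-box. Of the members with an NRF1 core 7 of 14 fell, and of those without it 12 of 53. For the ETS core these counts were 8 of 29 and 11 of 38, for YY1 3 of 12 and 16 of 55, and for the E-box 5 of 9 and 14 of 58. No test was made of these differences.

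Many members have the start of a gene read in the opposite direction nearby, and whether such genes share a promoter was not tested. For 26 of the 67 members (38.8%) such a start lay within 1000 bases, compared with 21.1% of all genes in the table. Starts that overlapped by under 200 bases were included. The partner was measured for 20 of them, and 3 partners fell and 1 rose. Among the 26 members, 8 fell, and in 0 pairs did both genes fall. MRPS11 and MRPL46 are such a pair of members, with starts 320 bases apart. MRPS11 differed by -0.14 (adjusted p = 0.213) and MRPL46 by 0.04 (adjusted p = 0.643), so neither passed.

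Falls were 34% of the large-subunit members and 32% of the small-subunit members. Of 50 large-subunit members 17 fell and 2 rose, with a median difference of -0.114, and of 25 small-subunit members 8 fell and 0 rose, with a median of -0.109. MRPS30 and MRPS18A carry small-subunit names but lie in the large subunit and are counted there. MRPS18A and MRPS18B are paralogs of the bacterial protein S18 but are classed here as mitochondria-specific, as in their structural names. Among the small-subunit proteins, 8 of the 15 with a bacterial homolog fell (median -0.164), as did 0 of the 10 that are specific to mitochondria (median 0.031; 4 of 10 below 0). None of these 10 passed, with values such as -0.17 for MRPS23 (adjusted p = 0.0947) and 0.15 for MRPS33 (adjusted p = 0.0674). In the large subunit, 10 of 30 bacterial homologs fell and 1 rose (median -0.131), and 7 of 20 mitochondria-specific proteins fell and 1 rose (median -0.096). The difference between these classes was not tested. With cyclic loess, 2 of the 10 mitochondria-specific small-subunit genes rose, and the count of falls among the 15 homologs was 5. Without the intensity trend 5 large-subunit and 0 small-subunit members fell. The count of falls among the 15 homologs was 0 without either GFP array, 1 without ZNF750-labelled array 1 and 3 without array 2, and the large-subunit count of falls was 0, 0, 9 and 11.

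**Figure D3:**
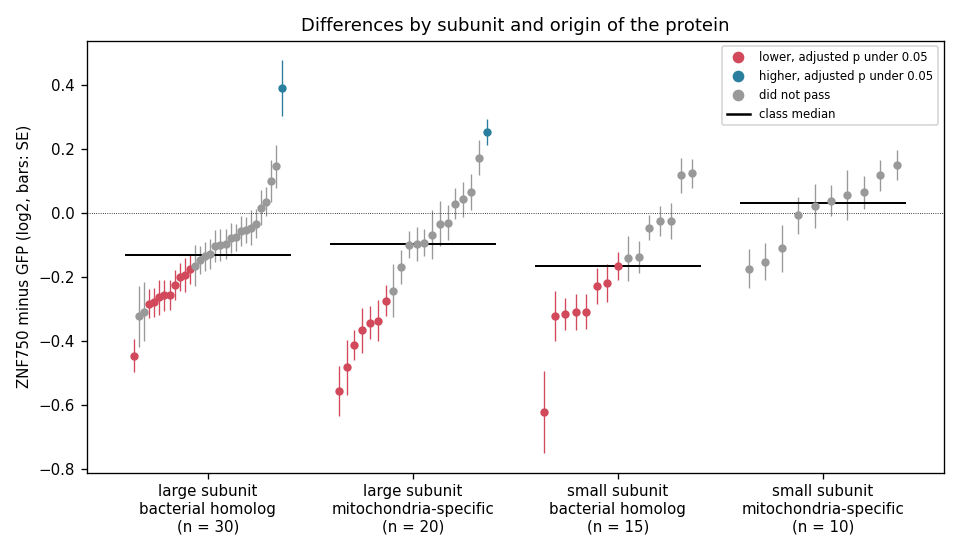
Log2 difference, ZNF750-labelled minus GFP, of each member by subunit and by bacterial homolog or mitochondria-specific origin; red points fell, blue points rose, grey points did not pass, bars are standard errors and the line in each class is its median. The medians are -0.131 and -0.096 in the large subunit and -0.164 and 0.031 in the small subunit.

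Of the 7 members listed here for the central protuberance 5 fell (71.4%), against 33.3% of all members and 19.4% of the brighter genes. The 5 were MRPL48, MRPL40, MRPL58, MRPL38 and MRPL27, and the median over the 7 was -0.335. This class was not among those fixed by the naming rule, and its share was not tested. MRPL27 was at 10.63 and 10.68 with GFP and 10.46 and 10.50 in the ZNF750-labelled arrays (-0.17 ± 0.0464, adjusted p = 0.0396). MRPL18, a homolog of a bacterial protein of the same place, differed by 0.04 (adjusted p = 0.64) and MRPL46 by 0.04 (adjusted p = 0.643). The count of 5 was 4 with cyclic loess, 2 without the intensity trend or either ZNF750-labelled array, and 0 without either GFP array.

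Along the exit tunnel all 6 members had differences below 0, but only MRPL23 passed. MRPL47 differed by -0.15 (adjusted p = 0.0562), MRPL24 by -0.13 (adjusted p = 0.111), MRPL17 by -0.10 (adjusted p = 0.208), MRPL22 by -0.10 (adjusted p = 0.213) and MRPL45, which holds the ribosome near the inner membrane, by -0.03 (adjusted p = 0.762). Of the 4 stalk members, which recruit translation factors, MRPL12 fell, from 10.85 and 10.92 to 10.61 and 10.60 (-0.28 ± 0.0451, adjusted p = 0.00594). The other stalk members gave -0.10 for MRPL11 (adjusted p = 0.214), -0.05 for MRPL10 (adjusted p = 0.623) and -0.03 for MRPL54 (adjusted p = 0.799), and did not pass. MRPS12, the decoding-site protein, was at 10.92 and 11.01 against 10.68 and 10.81 (-0.22 ± 0.0588, adjusted p = 0.0401). Without either GFP array MRPL23, MRPL12 and MRPS12 lost their calls, as every called member did.

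Of the 3 paralogs of the bacterial protein S18, only MRPS18C passed, and the paralogs were not tested against each other. MRPS18C, the one that takes the place of S18 in the small subunit, fell from 9.76 and 9.86 to 9.57 and 9.60 (-0.23 ± 0.0558, adjusted p = 0.0292). MRPS18B was at 9.61 and 9.71 against 9.61 and 9.83, with groups that overlapped (adjusted p = 0.671). MRPS18A, which lies in the large subunit, was at 9.60 and 9.68 against 9.78 and 9.85, without overlap, and its difference of 0.17 did not pass (adjusted p = 0.0691). Settings under which it passed as higher included leaving out dim genes, cyclic loess, a second quantile normalization and centring on the brighter genes. The other probe set of MRPS18A, 221693_s_at, gave -0.17 (adjusted p = 0.114 in the fit over all probe sets).

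The 48 members that did not pass had differences from -0.32 to 0.17, of which 32 were below 0 and 16 above. Those farthest below 0 were MRPL1 and MRPL19. MRPL1 was at 9.60 and 9.49 with GFP and 9.37 and 9.08 in the ZNF750-labelled arrays (-0.32, adjusted p = 0.0556), and MRPL19 was at 9.13 and 8.84 against 8.67 and 8.68 (-0.31, adjusted p = 0.0613). Neither overlapped between groups, but 1 group of each had duplicates more than 0.25 apart. The highest signal among the members was that of MRPL3, at 12.49 and 12.42 against 12.42 and 12.34 (adjusted p = 0.278), although levels of different probe sets are not compared as amounts of RNA.

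Several probe sets measured 37 of the 75 members, and they often disagreed. All probe sets of a gene had differences below 0 in 12 members and above 0 in 3, while 22 members had probe sets on both sides. Tested singly over all 54613 probe sets, 25 of the 140 member probe sets fell (17.9%, against 7.19% of all probe sets) and 5 rose (3.57%, against 4.3%). Among the 65 that were not the brightest of their gene, 4 fell and 3 rose, with a median of -0.056. For the members that fell, 10 had 18 further probe sets, of which 11 were below 0, 0 fell and 1 rose. No member that fell was thus called lower by more than 1 of its probe sets.

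MRPL42 was the only member with probe sets that passed in opposite directions. Its brightest, 217919_s_at, fell (-0.34 ± 0.0535, adjusted p = 0.00827), and 222466_s_at, at 9.30 and 9.26 with GFP and 9.54 and 9.49 in the ZNF750-labelled arrays, rose (0.23 ± 0.056, adjusted p = 0.038). In MRPL30 the brightest, 224971_at, was at 10.15 and 10.13 against 10.11 and 10.10 (adjusted p = 0.736), but 3 dimmer ones fell. Of these, 243887_at went from 7.38 and 7.36 to 6.47 and 6.57, a fall of 1.81-fold (-0.85 ± 0.0852, adjusted p = 0.00187). The other 2 were 224173_s_at (-0.53 ± 0.0991, adjusted p = 0.0156) and 223996_s_at (-0.33 ± 0.078, adjusted p = 0.0347). MRPL9 likewise had a brightest probe set with -0.05 (adjusted p = 0.517) and another, 211594_s_at, that fell (-0.32 ± 0.0562, adjusted p = 0.0124).

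The rise of MRPL57 was seen in 3 of its 4 probe sets, by 0.25, 0.26 and 0.42, and the last gave 0.11 (adjusted p = 0.464). The rise of MRPL2 was not seen in its other probe set (-0.02, adjusted p = 0.926). The 4 probe sets of MRPS22 lay 0.12 to 0.19 higher with no overlap between groups, and none passed. Where the transcript region of each probe set lies was not examined, so which transcripts they measure is not given.

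**Figure D4:**
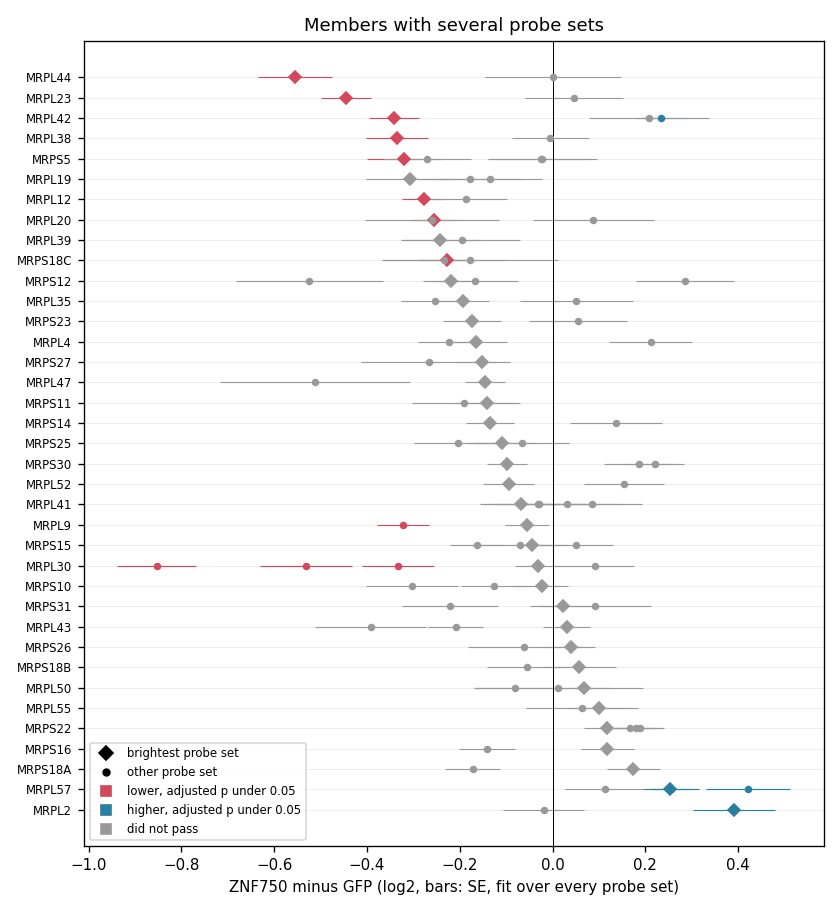
Log2 difference, ZNF750-labelled minus GFP, of each probe set of members that have several; the brightest probe set of each gene, which represents it in the gene fit, is a diamond and the others are circles. Red probe sets fell and blue ones rose in the test over all probe sets, grey ones did not pass, and bars are standard errors. MRPL42 has points that passed on both sides of 0, and MRPL30 has 3 dimmer probe sets that fell.

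The rest of the machinery for mitochondrial protein synthesis was measured from lists of known factors. The shares of falls in these lists stand beside 10.2% of all genes and 19.4% of the brighter genes. The 4 other subunits of the mitochondrial ribosome held 1 fall, in PTCD3 of the small subunit (-0.25 ± 0.058, adjusted p = 0.0233). DAP3 differed by 0.02 (adjusted p = 0.875), CHCHD1 by -0.17 (adjusted p = 0.0508) and GADD45GIP1 by 0.14 (adjusted p = 0.135). Among 29 assembly and rRNA modification factors 4 fell (13.8%) and 3 rose (10.3%), with a median of -0.031. The balance turned to 2 falls and 4 rises with cyclic loess (median 0.013) or a second quantile normalization (median 0.028), and centring on the brighter genes gave 4 and 4 (median 0.015). C1QBP, a matrix protein, fell from 11.62 and 11.66 to 11.09 and 11.21 (-0.49 ± 0.0504, adjusted p = 0.00114), FASTKD2 fell (-0.47 ± 0.0865, adjusted p = 0.00988) and LETM1, an inner membrane protein, rose (0.28 ± 0.058, adjusted p = 0.0159).

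Of 16 mitochondrial translation factors 3 fell (18.8%, against 19.4% of the brighter genes) and 0 rose, with a median of -0.077. With cyclic loess, a second quantile normalization or centring 2 fell and 2 rose. GUF1, the mitochondrial homolog of elongation factor LepA, went from 7.46 and 7.30 to 6.89 and 6.69 (-0.58 ± 0.103, adjusted p = 0.00817). OXA1L, the insertase that receives the new chain, fell (-0.36 ± 0.0627, adjusted p = 0.00757), as did the recycling factor MRRF (-0.26 ± 0.0736, adjusted p = 0.0481), whose call was lost with those 3 scalings. Of 18 mitochondrial aminoacyl-tRNA synthetases 7 fell (38.9%) and 1 rose (5.56%), with a median of -0.225. FARS2 fell (-0.52 ± 0.0752, adjusted p = 0.00401), as did WARS2 (-0.48 ± 0.0927, adjusted p = 0.0113) and NARS2 (-0.36 ± 0.0528, adjusted p = 0.00397). These load phenylalanine, tryptophan and asparagine, and PARS2, which loads proline, rose (0.35 ± 0.0993, adjusted p = 0.0464).

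Among 13 genes of mitochondrial transcription and replication 2 fell (15.4%, against 19.4% of the brighter genes) and 0 rose, with a median of -0.091. They were the elongation factor TEFM (-0.31 ± 0.06, adjusted p = 0.0124) and the initiation factor TFB2M (-0.30 ± 0.0592, adjusted p = 0.0132). Of 13 nuclear regulators of mitochondrial genes 4 fell (30.8%) and 2 rose (15.4%), with a median of -0.099. With cyclic loess, a second quantile normalization or centring 2 fell and 3 rose. The coactivator PPARGC1B fell (-0.35 ± 0.0843, adjusted p = 0.0259), as did NRF1 itself, at 7.53 and 7.46 against 7.26 and 7.06 (-0.33 ± 0.0916, adjusted p = 0.0433). GABPB2, a GABP subunit, rose (0.27 ± 0.0756, adjusted p = 0.0474), as did YY1, at 12.12 and 12.01 against 12.30 and 12.28 (0.22 ± 0.0459, adjusted p = 0.0146). MYC was at 10.86 and 10.92 against 10.66 and 10.72 (-0.20 ± 0.0471, adjusted p = 0.0258), and its call was lost with those 3 scalings. Without the intensity trend, falls in these 6 lists numbered 0 in transcription, in the regulators and in the other subunits, 1 in assembly, 1 in the translation factors and 3 in the synthetases. Without either GFP array, 0 genes of these 6 lists passed. Falls of the synthetases numbered 7 without ZNF750-labelled array 1 and 2 without array 2, and those of the other 5 lists together 3 and 3.

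Of 76 subunits of the oxidative phosphorylation complexes, 26 fell and 3 rose, a share of falls of 34.2% with a median of -0.085. Examples were ATP5F1A (-0.55 ± 0.0524, adjusted p = 0.000868), NDUFA10 (-0.53 ± 0.0722, adjusted p = 0.0031) and ATP5PB (-0.42 ± 0.0441, adjusted p = 0.00122). Of 59 cytosolic ribosomal proteins 5 fell and 3 rose, or 8.47% and 5.08%, with a median of -0.015. RPL6 fell (-0.43 ± 0.0677, adjusted p = 0.00519), RPS6 fell (-0.22 ± 0.0449, adjusted p = 0.0133) and RPL27A rose (0.25 ± 0.0691, adjusted p = 0.0419). With cyclic loess oxidative phosphorylation had 16 falls, 10 rises and a median of -0.036, and the cytosolic class changed sign, with 2 falls, 15 rises and a median of 0.05. With a second quantile normalization these were 17 falls, 9 rises and -0.029, and 3 falls, 8 rises and 0.021. Centring on the brighter genes gave 16 falls, 4 rises and -0.04, and 2 falls, 4 rises and 0.03. Without the intensity trend 4 and 0 genes fell and 0 rose in either class. Without GFP array 1 or 2 the oxidative phosphorylation falls numbered 1 and 2, and without ZNF750-labelled array 1 or 2 they numbered 11 and 15. No difference between these classes and the members was tested.

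The members' median difference stayed below 0 under each normalization, but its size and the calls moved. Cyclic loess gave 19 falls and 7 rises, a second quantile normalization 18 and 6, and centring on the brighter genes 22 and 6. Falls were then 73.1%, 75% and 78.6% of the member calls, against 92.6% as reported, and the median difference was -0.049, -0.049 and -0.064. Among all genes falls were 44.1%, 43.3% and 42.9% of the calls, against 56.6% as reported. Members below 0 numbered 47, 46 and 50, against 57 as reported. The SD of the deposited log2 values was 2.397 and 2.372 with GFP. It was 2.343 and 2.325 in the ZNF750-labelled arrays, and its part in the calls was not tested.

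**Figure D5:**
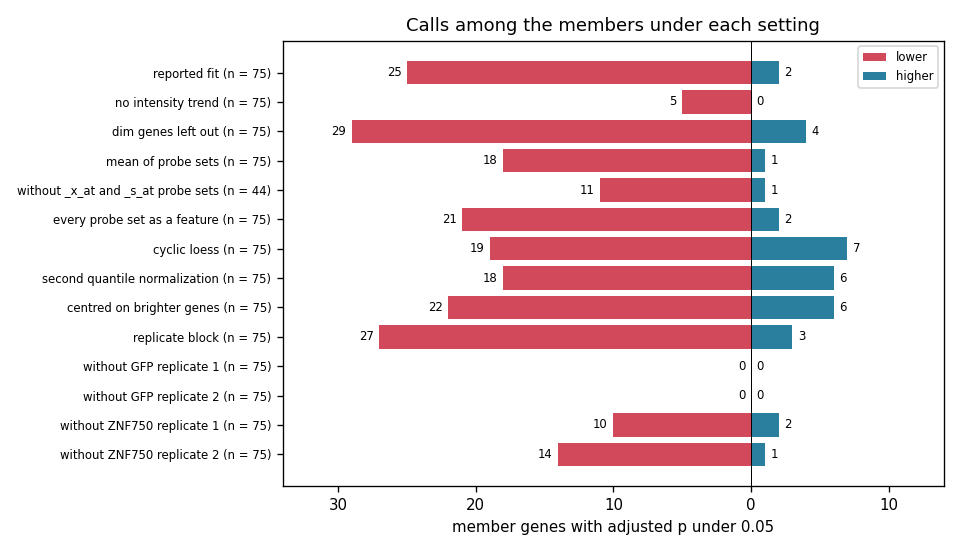
Number of members that fell (red, to the left) and rose (blue, to the right) under the reported fit and each alternative (vertical axis, with the number of members measured). Falls run from 0, without either GFP array, to 29, with dim genes left out.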

How the data were processed

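The authors deposited 1 table of log2 values of 54675 probe sets on 4 arrays. Per the submitters' processing notes, the tool was RMA; no version was named. It quantile normalizes the arrays and compresses differences of dim probe sets. Of the probe sets, 62 controls were left out, 41091 had 1 symbol, 1801 several and 11721 none. A gene is the single-symbol probe set with the highest mean over the 4 arrays. MRPL53 and MRPS24 had only probe sets with several symbols and are not analysed here.

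Differences (ZNF750-labelled minus GFP) came from limma 3.58.1, run in R 4.3.3 (lmFit and eBayes with an intensity trend, 2 residual degrees of freedom) and Benjamini-Hochberg adjustment over 19775 genes, calling an adjusted p under 0.05. Values after ± are limma standard errors. An exact permutation test of 2 against 2 arrays cannot go below 0.333 and was not used. The code was tested on simulated data. The number of arrays limits the precision.

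The rule for naming took the 8 largest rises and 8 largest falls among called members without overlap, members of the stalk, decoding site, exit tunnel and MRPS18 classes, members with probe sets called both ways, up to 3 called genes per context list, and MYC. Other genes named were chosen after their values were seen. The members, lists and rule were chosen with earlier results of these data known. Alternatives covered the variance prior, dim genes, probe set choice, normalization, centring, replicate block, threshold and leaving out each array.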

Additional observations from a re-analysis of the deposited data

How the results depend on the processing

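The signs of the 27 called members were kept under every alternative that measured them, except that MRPL42 became 0.033 with the mean of its probe sets and 0.21 without probe sets ending in _x_at or _s_at, and that MRPL23 became 0.046 and MRPL35 became 0.05 in the latter. Without those probe sets 18 of the 27 called members were measured and 15 kept their sign. Leaving out an array could not change a sign, because the groups of each called member did not overlap. Alternatives that changed only the variance prior, the replicate block or the features fitted left the differences themselves unchanged. For the 2013 falls and 1541 rises among all genes, the counts were 782 and 713 without the intensity trend and 1000 and 635 at an adjusted p under 0.01. Leaving out 1 array gave 58 to 1155 falls and 59 to 703 rises. Centring on the brighter genes gave 2529 rises. Among members, 5 fell and 0 rose without the intensity trend, 11 fell and 1 rose of 44 measured without _x_at and _s_at probe sets, and 12 fell and 1 rose at 0.01. Member rises were 4 with dim genes left out or at an adjusted p under 0.1, 1 with the mean of probe sets, 7 with cyclic loess and 6 with a second quantile normalization or with centring. Leaving out 1 array gave 0 to 14 member falls, 0 to 2 rises and medians of -0.151 to -0.094. The median was -0.049 with cyclic loess, -0.049 with a second quantile normalization and -0.064 with centring. Fewer arrays and the stricter threshold are the construction of those alternatives, and for the others the cause was not tested. Groups share replicate numbers in the labels, but only 2 pairs exist and their deviations correlated at 0.161, so the numbers were not taken as pairs. With a replicate block 27 members fell and 3 rose, and among all genes 2291 fell and 1676 rose. No detection calls were used, so signal over background is not known.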
